A study of Homo sapiens with 4 samples.

Results

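IGF2BP2 binding to the transcripts of 10 mitotic and proliferation marker genes was described in Jurkat cells, a human T-cell acute lymphoblastic leukaemia (T-ALL) line. The genes were MKI67, TOP2A, NUMA1, ASPM, CENPE, CENPF, KIF11, PLK1, AURKB and CCNB1, 10 of the 20056 protein-coding genes in the reference table. They were chosen by name, as known markers, with earlier results of these data known. A peak was taken as belonging to one of them by its listed Ensembl identifier. Its main region also had to be neither antisense nor intergenic (a sense peak). All such peaks lay inside the gene's own interval on its strand. The members held 147 of 74237 sense peaks in replicate 1 and 153 of 77288 in replicate 2, which is 0.198% of either list.

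The samples were 2 IGF2BP2 iRIP libraries and 2 input libraries from this cell line, which the labels describe with no added agent, genotype or time point. In iRIP-seq the RNA is crosslinked to protein by UV light and recovered with an antibody to the protein. What follows rests on the peaks listed for the iRIP libraries. The inputs were not analysed here. With 1 condition there are no groups to test against each other, so each value is given in both libraries, as replicate 1 and then replicate 2, with no p-value. Nothing in the labels says that the libraries came from separate cultures. Across all genes the lists held 145715 and 137934 peaks of 4 to 91 tags and of 5 to 191 tags, and the number of reads behind them is unknown. Heights were therefore not adjusted for depth. Sense peaks in both libraries lay on 8 of 11 T cell marker genes, ZAP70 (36 and 37 peaks) and CD247 (11 and 14) among them, and on 3 of 10 B cell and myeloid genes, led by PAX5 (5 and 5) and SPI1 (1 and 2), of which 0 had overlapping peaks in the 2 libraries.

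Dividing cells build the mitotic machinery anew in each cycle, and many of its genes are transcribed late in the cycle and serve as markers of proliferation. MKI67 encodes Ki-67, which coats mitotic chromosomes, and TOP2A untangles their DNA. NUMA1 and ASPM work at the spindle poles, CENPE and CENPF at the kinetochore, and KIF11 pushes the poles apart. PLK1 and AURKB are mitotic kinases, and CCNB1 (cyclin B1) activates CDK1 at the entry into mitosis. IGF2BP2 is an RNA-binding protein of the cytoplasm that reads the m6A mark and is known to stabilise the mRNAs it binds. The study asked which transcripts it binds in T-ALL cells.

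A RefSeq window around a transcription start (GRCh38.p14) was matched for all 10 genes. For AURKB it belongs to starts inside the gene's span, downstream of the outermost start from which distances are given here. In 4 of the genes, CENPE, KIF11, AURKB and CCNB1, it met a sense peak in both libraries. CENPF had one in replicate 2 alone. The bases shared by peak and window are shown for 4 of these 5 genes, up to 30 bases from the peak's 5′ end and on the transcribed strand, because they are the peak sequences that the reference covers. CENPE is not shown, since its peak and window share fewer than 15 bases. The region beside each sequence is the main region of the whole peak, not of the bases shown. The AURKB peak is 48% CDS, so its label does not say that the bases shown are noncoding. Capitals mark GGAN, where N is any base, a motif that was searched on both strands.
CCNB1, chr5:69167151-69167180, plus strand, 5′ UTR: gcgtgctgcggcGGAAcggctgttggtttc
KIF11, chr10:92593151-92593179, plus strand, 5′ UTR: agacgagattagtgatttggcggctccga
AURKB, chr17:8210176-8210200, minus strand, noncoding exon: ccctggccctacggccgacagacgg
CENPF, chr1:214603201-214603230, plus strand, 5′ UTR, replicate 2 alone: gggcgaattgggcaccggtggcggctgcgg
GGAN stood on the transcribed strand of the CCNB1 stretch and on the opposite strand of the KIF11 stretch, and on neither strand of the AURKB and CENPF stretches. In the last 30 bases of all 35116 windows it stood on the transcribed strand of 49.7% and on either strand of 72.8%, so a match to a motif this short is common. The peaks behind the sequences had 8 and 7 tags on CCNB1, 6 and 7.5 tags on KIF11, 10 and 10 tags on AURKB, and 5 tags on CENPF.

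All 10 genes had a sense peak in both libraries, against 41.6% of the 20056 protein-coding genes. A peak mainly in coding sequence (CDS) or UTR was present in both libraries on all 10, against 20.4%, and peaks that overlapped by at least 1 nt on the same strand were present on all 10, against 14.6%. On 7 of the 10 both libraries had a peak that reached 10 tags, against 3.71%. ASPM, CENPE and KIF11 were the 3 without it. At least 10 sense peaks in each library were found on 4 of the 10 (MKI67, NUMA1, CENPF and PLK1), against 5.57%. Because the members were chosen with earlier results of these data known, these contrasts are a description alone. The shares are over all protein-coding genes of the table, whether transcribed in Jurkat or not and whether their identifier could be named or not. Among the 8338 genes with a sense peak in both libraries, 49.1% had a CDS or UTR peak in both, 35.0% had overlapping peaks, 8.92% reached 10 tags in both and 13.4% had at least 10 peaks in both. Transcript levels were not analysed here, so neither counts nor heights are per transcript.

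The number of sense peaks ranged widely among the members. MKI67 had 46 and 40 peaks, NUMA1 37 and 48, CENPF 18 and 17, TOP2A 9 and 15, and PLK1 11 and 12. Fewer lay on AURKB (8 and 8), CCNB1 (6 and 5), KIF11 (6 and 3), CENPE (4 and 2) and ASPM (2 and 3). The 2 libraries' values of MKI67 and NUMA1 overlapped, as did those of TOP2A and PLK1 and of each neighbouring pair from CCNB1 down, so the order within these pairs is not set by the data. MKI67 and NUMA1 together held 56.5% and 57.5% of the members' peaks. The median over the 10 genes was 9.75 peaks (mean of the libraries), beside a median of 4 over the 8338 genes with a sense peak in both libraries (quartiles 2 and 7.5, highest 334.5).

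The order changed when counts were set against the length of the gene, introns included. MKI67 had 14.4 sense peaks per 10 kb (mean of the libraries), AURKB 13.7 and PLK1 10.0, and the values of MKI67 and AURKB overlapped. NUMA1 followed with 5.47 peaks per 10 kb, CCNB1 with 4.96 and TOP2A with 4.09, neighbours that overlapped, and CENPF with 2.85. KIF11, ASPM and CENPE had 0.723, 0.400 and 0.324 peaks per 10 kb. The median over the 8338 genes was 0.652 peaks per 10 kb. Thus 3 long genes, 2 of them encoding a mitotic motor, lay near or below the usual density. The compact kinase genes AURKB and PLK1 had more peaks per 10 kb than 97.5% and 96.0% of the 8338 genes. Other long members were also dense, as NUMA1 (77.7 kb) and CENPF (61.4 kb) exceeded 90.4% and 81.4% of them.

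Most of the members' peaks lay in coding sequence. CDS was the main region of 104 peaks in replicate 1 (70.7%, 95% Wilson interval 62.9% to 77.5%) and of 104 in replicate 2 (68.0%, 60.2% to 74.8%), beside 25.4% and 31.0% of the sense peaks of all named protein-coding genes. Introns were the main region of 30 and 31 peaks (20.4% and 20.3%, beside 63.5% and 57.0%), the 5′ UTR of 4 and 6, the 3′ UTR of 7 and 10, and noncoding exons of 2 and 2. Every member had at least 1 CDS peak in each library. The 3′ UTR peaks were on MKI67 (4 and 7), NUMA1 (2 and 2) and PLK1 (1 and 1). Without MKI67 and NUMA1 the CDS share was 68.8% and 63.1%. The intervals take in counting error alone, as PCR copies of a read are no separate molecules, and peaks of 1 gene share their source.

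Many of the peaks counted as intronic reached into an exon. Of the 30 and 31 peaks mainly in introns, 18 and 24 held some CDS, and 9 and 4 lay wholly in intron. The last are 6.12% and 2.61% of the members' peaks, beside 55.7% and 47.2% of the sense peaks of all named protein-coding genes. Peaks that held both CDS and intron numbered 49 and 69. Any CDS was present in 124 peaks (84.4%) and in 134 peaks (87.6%).

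The wholly intronic peaks were low and were not shared. They had a median of 4 and 5 tags, the lowest heights in the 2 lists, and at most 5 and 6 tags. Of the 9 in replicate 1, 0 were overlapped by a replicate 2 peak, and of the 4 in replicate 2, 0 were overlapped by a replicate 1 peak. An approximate upper limit, 3 divided by the number of peaks, is 33.3% and 75%. It is rough at so few peaks, and at 4 peaks it sets almost no limit. CENPE and KIF11 held 3 each in replicate 1. In contrast, 38 of the 49 peaks with both CDS and intron in replicate 1 were overlapped (77.6%), as were 40 of 69 in replicate 2 (58.0%), and of the peaks wholly in CDS 29 of 68 (42.6%) and 26 of 53 (49.1%). Over all named protein-coding genes the same order held, at 53.8% and 38.9% for peaks with CDS and intron, 30.3% and 21.9% for peaks wholly in CDS, and 3.40% and 3.63% for peaks wholly in intron.

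The members' peaks were higher than sense peaks in general, though less so within CDS. Their median height was 5.5 and 8 tags, beside 4 and 5 tags over all sense peaks, and their highest had 21 and 35 tags. For peaks mainly in CDS the gap was smaller, with medians of 5.5 and 8 tags beside 5 and 6.5 tags. The shares that follow were not split by region. At least 10 tags were reached by 21 of 147 peaks (14.3%) and by 53 of 153 (34.6%), beside 3.31% and 10.2% for all named protein-coding genes. Longer peaks were also frequent, with 32 (21.8%) and 43 (28.1%) wider than a single 50-nt bin, beside 5.89% and 9.47%. A height appears to be a mean per bin, since height times number of bins was whole to within 0.01 tags for 100% of the sense peaks of both lists.

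A replicate 2 peak overlapped 82 of the 147 replicate 1 peaks (55.8%, 47.7% to 63.6%), and a replicate 1 peak overlapped 81 of the 153 in replicate 2 (52.9%, 45.1% to 60.7%). The same shares were 20.4% and 18.5% over all named protein-coding genes. Height and region move with this share. Among peaks of at least 10 tags, 71.4% and 73.6% of the members' peaks were overlapped, beside 74.6% and 63.1%, so in replicate 1 the tall peaks of the members were overlapped about as often as tall peaks in general. Among peaks mainly in CDS the shares were 54.8% and 52.9%, beside 45.9% and 35.2%. PLK1 had 8 of 11 and 8 of 12 peaks overlapped, CCNB1 4 of 6 and 4 of 5, and AURKB 5 of 8 in both. KIF11 had 1 of 6 and 1 of 3.

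Each overlapped replicate 1 peak was paired with the highest replicate 2 peak on it, so a replicate 2 peak could enter several pairs. Where several replicate 2 peaks overlapped, this choice favoured replicate 2. In the 82 overlapping pairs the replicate 2 peak was the higher in 70, the replicate 1 peak in 7, and 5 were equal. The median heights were 6 and 9.75 tags, and 43 pairs had the same start and end. Over all sense peaks 9633 of 12357 pairs were higher in replicate 2, a majority in both cases. Across the members' 82 pairs Pearson's r was 0.505 and Spearman's rho 0.543, given as a description of sites that share 2 libraries and 10 transcripts.

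MKI67, on the minus strand at chr10:128096659-128126423, had peaks along its whole length, most densely in the 3′ part of its genomic span. Between 17 and 25 kb from the start it had 23 and 16 peaks, of which 22 and 16 lay wholly in CDS. Heights there ran from 5 to 16 and from 6 to 24 tags. The other library had a peak on 10 and 8 of them. This stretch was picked after its peaks were seen.

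The shared peak of MKI67 with the highest lower height had 12 tags in replicate 1 (chr10:128112400-128112450) and 14.7 tags in replicate 2 (chr10:128112100-128112450), both mainly CDS. The highest peaks of the 2 libraries were elsewhere and differed. In replicate 1 it had 21 tags (chr10:128110350-128110400, part CDS and part intron), with no replicate 2 peak on it. In replicate 2 it had 35 tags (chr10:128101250-128101300, CDS), where replicate 1 had 9.5 tags. Thus the largest single value of this gene in each library was not matched in size in the other.

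TOP2A, on the minus strand at chr17:40388525-40417896, had its highest peak of both libraries in the same bin, 0.121 kb from the start (chr17:40417750-40417800). It had 20 and 21 tags, is 42% CDS and 40% intron by length, and was the tallest shared peak of the 10 genes by the lower of the 2 heights. A second shared peak about 1 kb from the start had 9 and 11 tags. The 3 other shared peaks had 5 to 8 tags in replicate 1 and 5 to 10 tags in replicate 2. Replicate 2 listed 10 further peaks that replicate 1 did not, of 5 to 9 tags.

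NUMA1, on the minus strand at chr11:72002864-72080542, had most of its peaks in the 3′ part of its genomic span, introns included. CDS was the main region of 28 and 37 of them, and the 3′ UTR of 2 and 2. Of its peaks, 34 of 37 and 40 of 48 lay at least 60 kb from the start, within the last 18 kb of the gene. Between 64 and 69 kb from the start 21 and 17 peaks stood close together, 19 and 16 of them wholly in CDS, with 4 to 11 tags in replicate 1 and 5 to 15 tags in replicate 2. The shared peak with the highest lower height lay further on, at chr11:72004200-72004250, with 11 and 19 tags. The highest value of replicate 2, 32 tags at chr11:72003850-72003900, met 8.5 tags in replicate 1.

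ASPM, the other spindle pole gene, on the minus strand at chr1:197084127-197146669, had 2 and 3 peaks. Its only shared peak lay wholly in CDS near the start (chr1:197146200-197146300 in replicate 1), with 4.5 and 9 tags. The 2 spindle pole genes thus differed in number of peaks by more than the spread between the libraries, with 37 and 48 against 2 and 3.

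**Figure D1:**
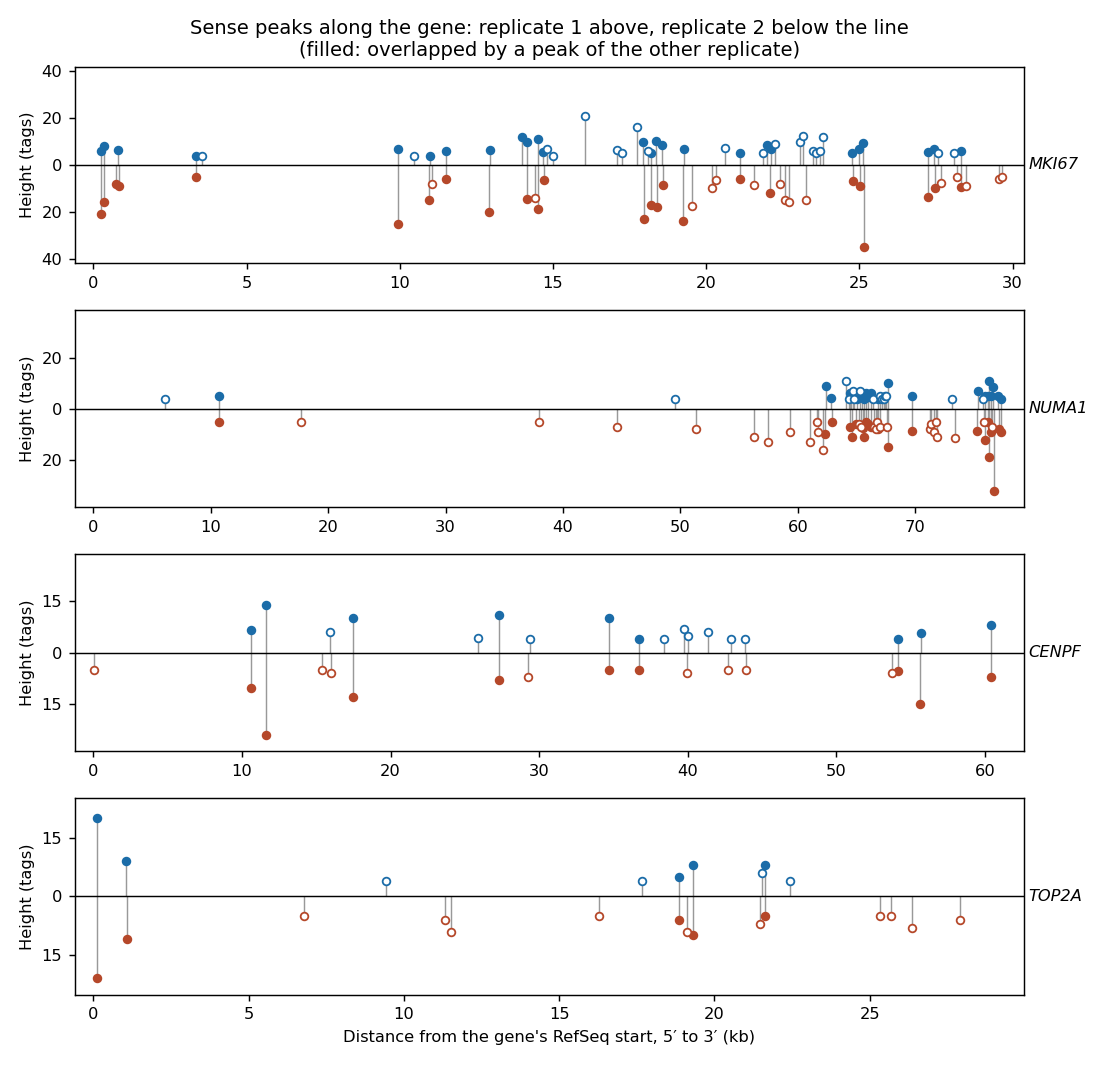
Sense peaks on MKI67, NUMA1, CENPF and TOP2A, by distance from the gene's start (horizontal axis, kb) and height (vertical axis, tags), with replicate 1 above and replicate 2 below each line and filled points for peaks overlapped by the other library. NUMA1 has 34 of 37 and 40 of 48 peaks beyond 60 kb, and TOP2A has its tallest peak, 20 and 21 tags, at the start.

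CENPF, a large kinetochore protein gene on the plus strand at chr1:214603195-214664571, had 18 and 17 peaks, of which 11 and 11 held both CDS and intron. Its highest peak was the same in both libraries (chr1:214614800-214614850), with 14 and 24 tags and 38% of its length in CDS. Of 9 shared peaks, 7 had 10 tags or fewer in replicate 1. Between 34 and 45 kb from the start 8 and 5 peaks were listed, with at most 10 and 6 tags, and 2 of them were shared.

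CENPE, the kinetochore motor gene on the minus strand at chr4:103105811-103198343, had 4 and 2 peaks. One was shared, 0.068 kb from the start (chr4:103198250-103198300), mainly CDS, with 4 and 5 tags, the lowest height of each list. The other 3 and 1 lay wholly in intron and had 4 to 6 tags. The kinetochore genes therefore differed as the spindle pole genes did, with 18 and 17 peaks against 4 and 2.

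KIF11, a spindle motor gene on the plus strand at chr10:92593130-92655395, had 6 and 3 peaks. The shared peak lay in the 5′ UTR (chr10:92593150-92593200 in replicate 1) with 6 and 7.5 tags and holds the sequence shown above. Of the other 5 in replicate 1, all had 4 tags and 3 lay wholly in intron. On KIF11, CENPE and ASPM, the 3 members without a peak of 10 tags, the single shared peak lay within 0.5 kb of the start.

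PLK1, on the plus strand at chr16:23678889-23690367, had peaks towards both ends of its genomic span, 10 and 9 of 11 and 12 mainly in CDS and 0 wholly in intron. In replicate 1 no peak lay between those centred 5.09 and 8.61 kb from the start, and in replicate 2 none between 5.04 and 8.61 kb. These distances include introns, and exon positions were not available, so the gap was not placed on the transcript. Its shared peaks had 4 to 11 tags in replicate 1 and 6 to 14 tags in replicate 2. The one with the highest lower height (chr16:23688650-23688700) had 11 and 12 tags. Of its 8 shared peaks, 5 had the same start and end in both libraries.

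AURKB, the chromosomal passenger kinase gene on the minus strand at chr17:8204731-8210575, had 8 and 8 peaks on the shortest span of the 10. All 5 of its shared peaks had the same start and end. The peak with the highest lower height (chr17:8210150-8210200, part noncoding exon and 48% CDS) had 10 and 10 tags and holds the sequence shown above. At the other end of the gene a CDS peak was likewise in the same bin of both lists (chr17:8205200-8205250), but had 4 and 12 tags.

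CCNB1, on the plus strand at chr5:69167150-69178245, had few peaks, but tall ones. Its median height, 8.5 and 16 tags, was above that of any other member in both libraries. The highest (chr5:69167900-69167950, mainly CDS) had 17 and 19 tags, and a further shared CDS peak (chr5:69171250-69171300) had 15 and 16 tags. Another shared CDS peak had 9 and 17 tags, and the 5′ UTR peak 8 and 7 tags. By the lower of the 2 heights, the first 2 of these differed by 2 and 1 tags between the libraries, and the peak of 9 and 17 tags by 8. CCNB1, MKI67 and TOP2A were the 3 members whose lists both reached 15 tags.

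**Figure D2:**
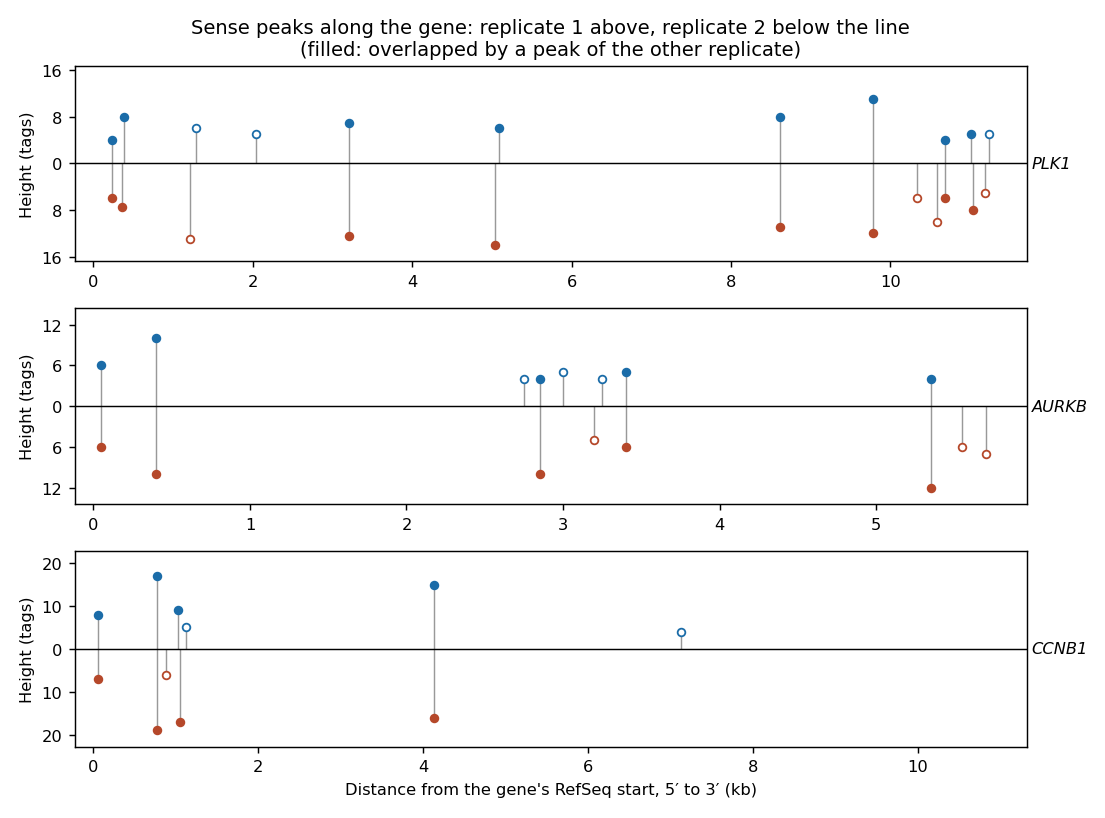
Sense peaks on the compact genes PLK1, AURKB and CCNB1, by distance from the gene's start (horizontal axis, kb) and height (vertical axis, tags), with replicate 1 above and replicate 2 below each line and filled points for peaks overlapped by the other library. On CCNB1 the peaks of 17 and 19 tags and of 15 and 16 tags are nearly level in the 2 libraries, and that of 9 and 17 tags is not.

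Antisense peaks, those listed under a member's identifier but on the opposite strand, numbered 7 and 7 (4.55% and 4.38% of sense and antisense peaks together), beside 28.1% and 23.0% over all genes. They had at most 4 and 6 tags. KIF11 had 2 and 4 of them, beside 6 and 3 sense peaks, and PLK1, AURKB, CCNB1 and ASPM had 0 in either library.

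The wider machinery was described with 105 other mitotic and proliferation genes in 8 lists, of which 80 (76.2%) had a sense peak in both libraries, against 41.6% of all protein-coding genes. A CDS or UTR peak in both was found on 64 of them (against 20.4%), overlapping peaks on 55 (against 14.6%), and a height of 10 tags or more in both on 24 (against 3.71%). Their median was 4.5 sense peaks. The lists were also chosen with earlier results of these data known. Another 10 of the genes could not be matched to an identifier and are counted as without a peak. In 7 of them (DCTN1, SPAG5, NUF2, NCAPG, SPC25, MIS12 and CCNA2), however, peaks were listed within the gene's interval on either strand. Over both lists these numbered 40 for DCTN1, 29 for SPAG5 and 1 to 6 for the others. For MAD2L1, TK1 and UBE2T no peak was listed there.

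Among regulators, 10 of 16 mitotic kinases, cyclins and phosphatases had a sense peak in both libraries, where the share over all protein-coding genes, here and for the lists that follow, is 41.6%. The phosphatase gene CDC25B, which activates CDK1, had 16 and 23, and the checkpoint kinase gene BUB1B had 10 and 10. CCNA2 (cyclin A2) was the 1 gene of this list without a match. All 3 partners of AURKB in the chromosomal passenger complex had peaks in both. INCENP, its scaffold, had 19 and 27 peaks with 24 and 27 tags at most, and CDCA8 (borealin) had 8 and 1. Per 10 kb of gene INCENP had 7.89 peaks (mean of the libraries), fewer than AURKB with 13.7.

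Of 20 centromere and kinetochore genes 14 had a sense peak in both libraries, led by the checkpoint gene MAD1L1 (40 and 47) and the centromere protein gene CENPT (7 and 15). MAD1L1's were mainly intronic (33 and 39), unlike those of CENPF. Of the anaphase-promoting complex and its targets 10 of 12 genes had one, led by FZR1, an activator of the complex (9 and 17), and ESPL1, which encodes separase (6 and 14). The mitotic kinesins counted 9 of 11, led by KIF18B (20 and 18) and KIF22 (9 and 16), which per 10 kb of gene is 8.24 and 8.54, above KIF11 (0.723) and CENPE (0.324).

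Spindle and cytokinesis genes counted 14 of 17, with the unmatched DCTN1 and SPAG5 among those counted as without. DYNC1H1, the dynein heavy chain, had 45 and 72 peaks, and PCNT (pericentrin) 48 and 57. Per 10 kb of gene these are 6.37 and 4.32 (means of the libraries), beside 5.47 for NUMA1. Condensin, cohesin and topoisomerase genes counted 12 of 15, with NCAPD3 of condensin at 20 and 26 and STAG1 of cohesin at 20 and 26. CDS was the main region of 10 and 18 of the NCAPD3 peaks but of 0 and 3 of those on STAG1. Proliferation markers counted 8 of 11. RRM2, a subunit of ribonucleotide reductase, had 40 and 52 peaks, of which 36 and 43 were intronic and 2 and 2 CDS, and the transcription factor gene MYBL2 had 19 and 17.

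Among 1114 other protein-coding genes with at least 10 sense peaks in each library, HDLBP, which encodes the RNA-binding protein vigilin, came nearest to the members' pooled shares of peaks by region. Its distance, over 10 shares (5 regions in 2 libraries), was 8.45 percentage points, and PCNX3 and PSMD2, a proteasome subunit gene, followed at 9.99 and 10.7. The median gene was 72.6 points away. HDLBP had 27 and 38 sense peaks with 70.4% and 65.8% in CDS.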

How the data were processed

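Peak lists of 2 IGF2BP2 iRIP libraries were used. The authors aligned read pairs with TopHat 2 (build GRCh38, per the submitters' processing notes), kept uniquely mapped reads, called peaks by ABLIRC in each library on its own, and removed peaks that overlapped input peaks, so sites also enriched in input are missing. The annotation version is not given in the sources used here. Heights, in tags, are the signal column the authors deposited, and their p-value served only as a filter. Regions and Ensembl identifiers are the authors' own.

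Members and lists were chosen with earlier results of these data known. Members were found by identifier. Of 20428 identifiers with sense peaks, 14036 were named by position, 11765 of them as protein-coding genes, from a RefSeq table (GRCh38.p14): at least 80% of CDS and UTR peaks in 1 gene, with a margin of 1000 nt. A peak's main region is that with the largest share of its length. Positions are as listed and were read as half-open intervals. Gene spans, starts, strands and sequences are from RefSeq (GRCh38.p14). Peak sequence away from the starts was not used here.

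Named were all 10 genes, their highest and best shared peaks, the 2 genes with most peaks of each list, list genes without a peak where few, and the 3 nearest genes by region. Other features named were chosen after their values were seen. Alternatives were other minimum heights, a lower p value, other regions, position in place of identifier, stricter overlap and each replicate left out. Functions for overlap and naming were tested on simulated data. Python 3.11.15, numpy 2.4.6 and pandas 2.3.3 were used.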

Additional observations from a re-analysis of the deposited data

How the results depend on the processing

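The 7 summary values of the 10 genes and the lists were recomputed under 43 alternatives, and 36 stayed within the tolerance set for each, 1.5 times for a count and 1 SD or the 95% Wilson interval for a share. The mean of 150 sense peaks became 37 at a minimum of 10 tags and 75 at a p value under 0.001. The mean CDS share of 69.4% became 71.6% at 10 tags and 65.9% without MKI67 and NUMA1, an alternative chosen after seeing the data. The overlapped share of replicate 1 became 66.0% at 5 tags in both lists. Members with at least 10 tags in both libraries fell to 3 at 15 tags, and list genes with a peak in both to 24 at 10 tags. With either library alone, the sense peaks were 147 to 153, the CDS share 68.0% to 70.7%, the genes with a peak 10 and 10, those with at least 10 tags 7 and 7, and the list genes 87 to 88. Some counts within the tolerance still fell: genes of the 10 with a peak in both libraries to 9 at 5 tags, 8 at a p value under 0.001 and 7 at 10 tags, those with overlapping peaks to 8 and 7 at 5 and 10 tags, sense peaks to 126.5 at 5 tags and 117.5 for CDS or UTR alone, list genes to 64 at 5 tags or for CDS or UTR alone, and members with at least 10 tags in both to 6 for CDS or UTR alone. No paired analysis was possible because the results come from no test. The unknown depth limits every comparison of heights between the libraries.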
